A study of Mus musculus with 96 samples.

Results

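Messenger RNA decay regulators are proteins that shorten the life of other transcripts, and 4 of their genes were followed here: Zfp36, Zfp36l1, Zfp36l2 and Zc3h12a. They were chosen by name, and each was read through the probe sets that the platform annotation assigns to it. That gave 3 of the 4 genes on 4 probe sets, out of 7741 named genes tested and 18858 probe sets in the table. Zfp36 was not analysed here. Zfp36l1 had 2 probe sets, and Zfp36l2 and Zc3h12a had 1 each.

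Primary mouse bone marrow dendritic cells were exposed to 1 of 5 ligands, and total RNA was hybridised to 96 Affymetrix mouse arrays, 1 colour each. The labels call the ligands Lps, Pic, Pam, Cpg and Grd. The labels do not spell these names out, and from what is known of the study they stand for lipopolysaccharide (sensed by TLR4), poly(I:C) (TLR3), a synthetic lipopeptide (TLR2), CpG DNA (TLR9) and gardiquimod (TLR7). Sampling was at 0.5, 1 and 2 h, at 4, 6 and 8 h, and at 12, 16 and 24 h, with 2 arrays for each ligand and time, except 1 Cpg array at 16 h and 1 at 24 h. Cpg therefore had 16 arrays and each other ligand 18. Unstimulated cells, labelled Control, had 8 arrays, 1 each at 0, 1 and 2 h, at 4, 6 and 8 h, and at 12 and 24 h. No genotype, strain, age or dose is given in the labels, nor whether replicate arrays are separate cultures, so each p-value speaks only of the spread among these arrays, and that spread may be technical.

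Zfp36, Zfp36l1 and Zfp36l2 encode zinc finger proteins that bind AU-rich elements in the 3' untranslated regions of transcripts and recruit the enzymes that remove the poly(A) tail. Zc3h12a encodes Regnase-1, an endonuclease that cuts stem-loops in the 3' untranslated regions of inflammatory transcripts, its own among them. In myeloid cells both kinds of protein are known for limiting cytokine production after Toll-like receptor signalling.

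The promoters of Zc3h12a and Zfp36l1 are shown because the promoter collection used here held these genes and not Zfp36l2. Each sequence is the 250 bases before the transcription start in RefSeq (build GRCm38.p6), on the minus strand, written 5′ to 3′. Capitals mark matches on either strand to the NF-kB letters (GGG, any 5 bases, CC), the AP-1 letters TGANTCA and the TATA box letters TATAAA.
Zc3h12a promoter, chr4:125127882-125128131: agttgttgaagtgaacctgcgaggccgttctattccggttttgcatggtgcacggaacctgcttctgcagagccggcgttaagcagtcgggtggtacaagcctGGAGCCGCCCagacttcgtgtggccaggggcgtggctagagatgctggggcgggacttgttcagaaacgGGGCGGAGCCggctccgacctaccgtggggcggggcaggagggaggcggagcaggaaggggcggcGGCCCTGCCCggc
Zfp36l1 promoter, chr12:80113014-80113263: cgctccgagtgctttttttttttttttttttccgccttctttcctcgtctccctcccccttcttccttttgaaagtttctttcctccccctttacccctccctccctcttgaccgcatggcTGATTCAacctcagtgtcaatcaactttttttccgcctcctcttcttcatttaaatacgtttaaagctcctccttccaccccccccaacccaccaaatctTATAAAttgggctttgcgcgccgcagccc
The Zc3h12a window held 3 matches to the NF-kB letters, with first bases at -147, -78 and -13 counted from the start, and 5 to the GC box letters GGGCGG, of which 2 overlapped an NF-kB match. The Zfp36l1 window held 1 match to the AP-1 letters at -129 and 1 to the TATA letters at -29. Among 32851 promoters of the same length, 45.8% held the NF-kB letters, 32.7% the GC box letters, 6.75% the AP-1 letters, 12.4% the TATA letters and 17.8% the cyclic AMP response element letters TGACG, which neither window held. The bases of the Zc3h12a window were 66.4% G or C and those of the Zfp36l1 window 48.4%. These are matches of letters only. Zfp36l2 is named only.

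All values are intensities on a linear scale with a floor of 20, and no member lay at the floor on any array. Across probe sets, Pearson's r between replicate arrays lay between 0.985, for Pam at 2 h, and 0.998, over 43 pairs. Of 9 dendritic markers with a probe set, 6 were high, among them Itgax between 1117 and 4878 and Cd74 between 5594 and 8439. The other 3 were low, with Flt3 at most 42.0, Zbtb46 between 22.6 and 183.3 and Ciita between 29.1 and 258.1. Their sum ran from 22898 to 28801 with Lps, 25456 to 28354 with Pic, 22111 to 30526 with Pam, 22166 to 30425 with Cpg and 19706 to 29495 with Grd, against 27201 to 29728 in unstimulated cells. Macrophage markers were measured as well, all 6 of them, and their summed intensity ran from 9389 to 19655 with Lps, 8086 to 15023 with Pic, 9924 to 21410 with Pam, 10896 to 20682 with Cpg and 8962 to 22735 with Grd, against 9899 to 14932 in unstimulated cells. The sum of 6 of 7 neutrophil markers ran from 299.5 to 2123 with Lps, 1036 to 2631 with Pic, 335 to 2079 with Pam, 381 to 1930 with Cpg and 461 to 2008 with Grd, against 1150 to 1728 in unstimulated cells, with Mpo, Elane and Cxcr2 at or near the floor. The remaining neutrophil markers of this sum were Ngp, Ltf and Camp, with medians of 938.65, 164.5 and 122.5 over all 96 arrays. Ngp had the highest median of the 6 and ran from 151.1 to 1831. The part of other cell types in the results below was not tested. In bulk RNA fewer cells of a type and less RNA per cell cannot be told apart. Lps, Pic, Pam and Grd lay in plate columns 1 to 9, 1 column for each time, and Cpg and the unstimulated cells in columns 10 to 12. Lps lay in rows A and B, Pic in C and D, Pam in E and F and Grd in G and H. Cpg lay in rows A to F, and the unstimulated cells in rows E, G and H. Place on the plate thus cannot be told apart from ligand or time, except where groups shared columns or rows. Cpg and unstimulated cells shared columns, Cpg shared rows with Lps, Pic and Pam, and unstimulated cells shared rows with Pam, Grd and Cpg. No unstimulated array shared a row or column with Lps or Pic.

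The members split by direction. Zc3h12a, the endonuclease gene, rose with Lps, Pam, Cpg and Grd, by 9.38-fold, 11.3-fold, 9.47-fold and 6.71-fold at 2 h in the model. Zfp36l2 fell with the same 4 ligands from 2 h on, and stayed low to 24 h. Zfp36l1 stood above its unstimulated level at 0.5 and 1 h, fell at 4 h with Lps, Cpg and Pam, and with Lps was higher again at 24 h than at 4 h. With Cpg it was also higher at 24 h, on 1 array. With Pic the only call among all windows and single times tested against unstimulated cells was Zfp36l2 at 4 h. The tests of single times, and of 24 h against 4 h, were added after the values were seen.

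**Figure D1:**
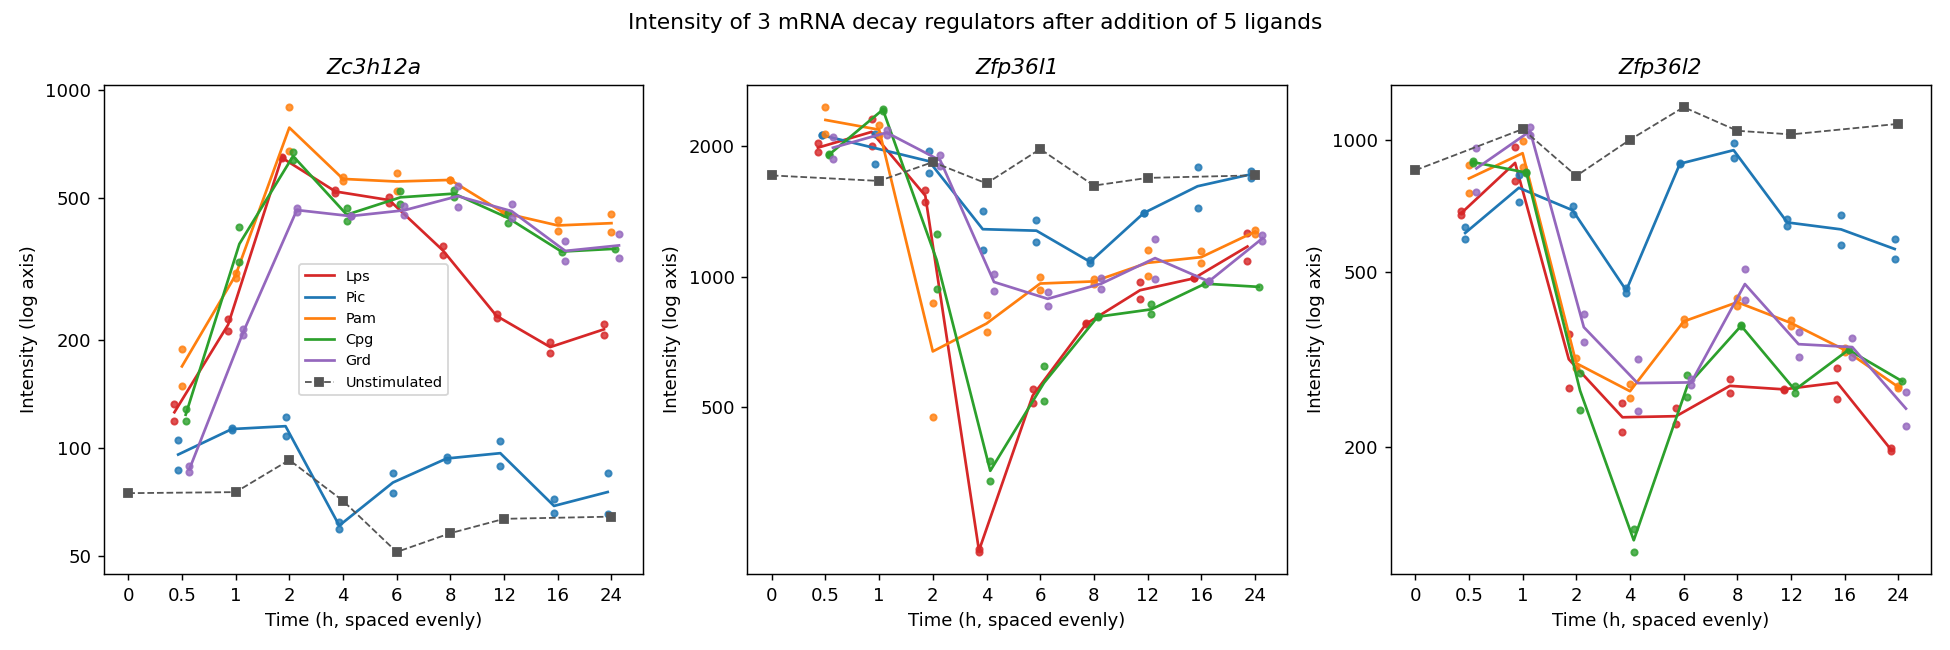
Intensity (log axis) of Zc3h12a, Zfp36l1 and Zfp36l2 at each sampled time in hours, spaced evenly. Circles are arrays, coloured lines are means of a ligand at a time, and grey squares are the 8 unstimulated arrays. Zc3h12a lies between 51.4 and 92.8 in unstimulated cells and reaches 894.4 with Pam, while Zfp36l2 lies below its unstimulated range on all 28 ligand arrays of 12 to 24 h.

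Zc3h12a had intensities with Lps of 119.1 and 133.1 at 0.5 h, 212.7 and 229.8 at 1 h, 649.8 and 643.6 at 2 h, 516.5 and 524.3 at 4 h, 502.7 and 482.3 at 6 h, 346.0 and 367.1 at 8 h, 230.5 and 237.7 at 12 h, 184.9 and 198.4 at 16 h, and 206.8 and 222.7 at 24 h. Unstimulated cells had 75.0, 75.5, 92.8, 71.4, 51.4, 58.0, 63.6 and 64.5, in order of their times, a mean of 69.0 ± 12.7 (SD, n = 8). All 18 Lps arrays lay above the 8 unstimulated ones, with the highest at 2 h. With Pam it had 188.9 and 149.7 at 0.5 h, 299.3 and 309.1 at 1 h, 674.2 and 894.4 at 2 h, 557.3 and 571.1 at 4 h, 523.1 and 586.7 at 6 h, 560.8 and 560.3 at 8 h, 452.0 and 454.5 at 12 h, 403.1 and 433.9 at 16 h, and 449.0 and 400.3 at 24 h. All 18 Pam arrays also lay above the unstimulated range, and the lowest after 2 h, 400.3, was higher than any Lps array of 8 h or later. Cpg gave 119.1 and 129.1 at 0.5 h, 413.3 and 330.0 at 1 h, 669.8 and 636.8 at 2 h, 429.4 and 467.4 at 4 h, 520.9 and 481.7 at 6 h, 524.9 and 502.0 at 8 h, 454.0 and 424.8 at 12 h, 353.8 at 16 h and 360.3 at 24 h. Here too all 16 arrays were above the unstimulated ones, which lay in the same plate columns, 10 to 12.

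With Grd the highest mean came later. Zc3h12a had 89.2 and 85.9 at 0.5 h of Grd, 214.6 and 206.6 at 1 h, 467.5 and 456.5 at 2 h, 444.0 and 444.8 at 4 h, 447.4 and 475.2 at 6 h, 471.8 and 538.5 at 8 h, 479.9 and 437.7 at 12 h, 378.3 and 332.3 at 16 h, and 397.0 and 339.2 at 24 h. Both 0.5 h arrays lay inside the unstimulated range and the other 16 above it, and the highest mean, 505, came at 8 h. With Pic it had 86.9 and 105.3 at 0.5 h, 113.8 and 112.6 at 1 h, 122.1 and 108.5 at 2 h, 62.4 and 59.4 at 4 h, 85.6 and 75.0 at 6 h, 92.8 and 94.6 at 8 h, 89.1 and 104.8 at 12 h, 72.2 and 66.0 at 16 h, and 85.4 and 65.7 at 24 h. Of the 18 Pic arrays 7 lay above the unstimulated range, 5 of them at 0.5 to 2 h, and none lay below it. The highest mean with Pic was 115 at 2 h, 1.67 times the unstimulated mean.

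In limma, Zc3h12a at 0.5 to 2 h stood above unstimulated cells by 1.93 ± 0.08 on the log2 scale with Lps (adjusted p = 5.4e-28), 2.31 ± 0.08 with Pam (1.2e-31), 2.17 ± 0.08 with Cpg (1.7e-30) and 1.57 ± 0.08 with Grd (1.6e-23), each called. With Pic it stood at 0.65 ± 0.08, not called. A gene was called at an adjusted p under 0.05 with a log2 difference of at least 1 in size, and ± after a log2 difference is the standard error of the model. Zc3h12a was the 1 member of 3 called in this window with Lps, Pam, Cpg and Grd, where 2.12%, 2.39%, 2.14% and 1.12% of all genes were called. With Pic 0 of 3 were called, against 0.863% of all genes, although all 3 had an unadjusted p under 0.05. The Grd call rests on the 2 h arrays, since without them the difference was 0.99.

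At 4 to 8 h Zc3h12a averaged 559.9 with Pam, 487.7 with Cpg, 470.3 with Grd, 456.5 with Lps and 78.3 with Pic, against 69.0 in unstimulated cells. The differences were 3.02 ± 0.08 with Pam, 2.82 ± 0.08 with Cpg, 2.77 ± 0.08 with Grd and 2.71 ± 0.08 with Lps, all called with an adjusted p of 8.6e-36 or less. With Pic the difference was 0.18 ± 0.08 (adjusted p = 0.035), which did not reach the size. At 12 to 24 h they were 2.65 ± 0.08 with Pam, 2.50 ± 0.08 with Grd, 2.47 ± 0.09 with Cpg (n = 4) and 1.63 ± 0.08 with Lps, called, and 0.22 ± 0.08 with Pic, not called. The level with Lps was the lowest of these 4 ligands late, at 213.5 ± 20.2 (SD, n = 6) against a lowest single array of 332.3 among the other 3.

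Zfp36l1 was read on the probe set of its 2 with the higher mean. With Lps it had 2031.8 and 1942.3 at 0.5 h, 2003.1 and 2318.8 at 1 h, 1587.5 and 1490.5 at 2 h, 230.9 and 234.5 at 4 h, 551.0 and 510.5 at 6 h, 776.1 and 780.9 at 8 h, 889.4 and 971.1 at 12 h, 991.1 and 990.4 at 16 h, and 1262.3 and 1085.5 at 24 h. Unstimulated cells had 1714, 1664.5, 1840.2, 1642.6, 1972.4, 1623.8, 1691.7 and 1714.7, in order of time, a mean of 1733 ± 117 (SD, n = 8). The 4 h mean with Lps, 233, was 13.4% of the unstimulated mean, and each later Lps mean was higher than the one before it. Cpg ran a like course, with 1918.1 and 1913.0 at 0.5 h, 2446.9 and 2420.0 at 1 h, 935.7 and 1252.8 at 2 h, 374.9 and 336.5 at 4 h, 620.8 and 515.2 at 6 h, 809.0 and 806.2 at 8 h, 817.6 and 863.0 at 12 h, 963.1 at 16 h and 947.2 at 24 h. Its lowest mean, 356 at 4 h, was 20.5% of the unstimulated mean.

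With Pam the level was already low at 2 h. Zfp36l1 had 2465.0 and 2140.8 at 0.5 h of Pam, 2242.0 and 2130.7 at 1 h, 868.6 and 474.6 at 2 h, 813.7 and 744.5 at 4 h, 996.6 and 931.5 at 6 h, 988.4 and 961.5 at 8 h, 1001.7 and 1151.0 at 12 h, 1143.6 and 1075.3 at 16 h, and 1284.7 and 1255.9 at 24 h. The 2 h arrays differed 1.83-fold, the most of the 43 pairs for this probe set, whose median ratio was 1.07, and these were also the least alike arrays across all probe sets. With Grd it had 2102.7 and 1870.5 at 0.5 h, 2120.6 and 2185.9 at 1 h, 1907.8 and 1804.0 at 2 h, 928.3 and 1015.7 at 4 h, 855.2 and 922.3 at 6 h, 992.8 and 934.6 at 8 h, 988.3 and 1219.2 at 12 h, 974.6 and 974.9 at 16 h, and 1206.9 and 1246.1 at 24 h. Both 2 h arrays of Grd lay inside the unstimulated range, and the lowest mean, 889 at 6 h, was 51.3% of the unstimulated mean. Pic gave 2120.0 and 2128.1 at 0.5 h, 1821.2 and 2142.0 at 1 h, 1740.5 and 1956.7 at 2 h, 1421.5 and 1153.4 at 4 h, 1353.8 and 1200.8 at 6 h, 1089.9 and 1074.0 at 8 h, 1406.1 and 1400.5 at 12 h, 1439.6 and 1796.5 at 16 h, and 1692.7 and 1757.0 at 24 h. The lowest Pic mean, 1082 at 8 h, was 62.4% of the unstimulated mean, and both 24 h arrays were back inside the unstimulated range.

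Counted over all ligands, 15 of 20 arrays of 0.5 and 1 h lay above the unstimulated range of Zfp36l1 and none below it, 30 of 30 arrays of 4 to 8 h lay below it, and 25 of 28 arrays of 12 to 24 h lay below it. On the second probe set 20 of 20 arrays of 0.5 and 1 h lay above the unstimulated range and 29 of 30 arrays of 4 to 8 h below it. At 2 h 5 of 10 arrays lay above it and 4 below on the second probe set, against 0 above and 6 below on the one with the higher mean. At 12 to 24 h 2 of 28 lay above it, both with Pic, and 23 below, where the one with the higher mean had 0 above. Its lowest means were 47.9 with Lps and 56.8 with Cpg, both at 4 h and 23.0% and 27.3% of the unstimulated mean, 105 with Pam at 2 h, 115 with Grd at 6 h and 145 with Pic at 4 h, against 208 ± 18.1 (SD, n = 8) in unstimulated cells. The order of the 5 ligands by these lowest means was the same on both probe sets.

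**Figure D2:**
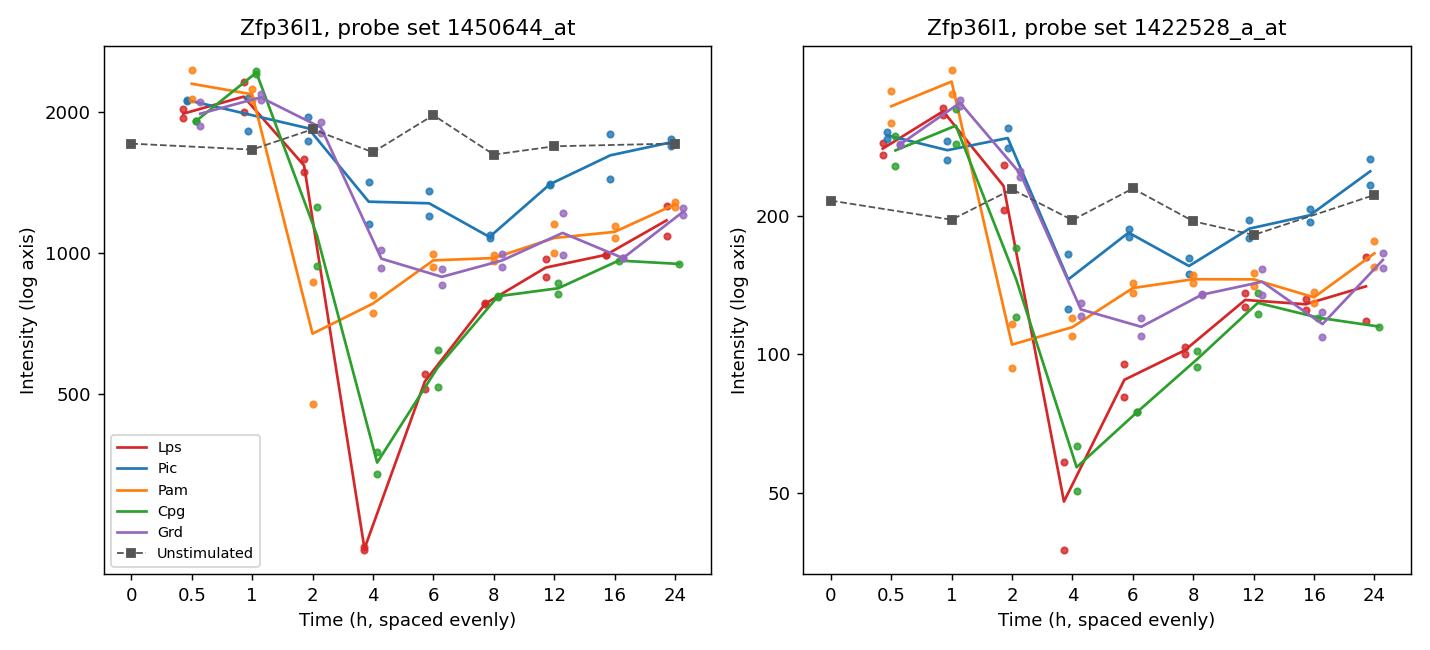
Intensity (log axis) of Zfp36l1 on its 2 probe sets at each sampled time in hours, spaced evenly, with arrays as circles, means as lines and the 8 unstimulated arrays as grey squares. On both, Lps and Cpg have their lowest mean at 4 h and Pam at 2 h, and on the left probe set the 2 Pam arrays of 2 h stand apart at 868.6 and 474.6.

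At 0.5 to 2 h, a window in which Zfp36l1 stood first above and then, with some ligands, below its unstimulated level, its differences were 0.12 ± 0.07 with Lps, 0.19 ± 0.07 with Pic, -0.23 ± 0.07 with Pam, -0.01 ± 0.07 with Cpg and 0.20 ± 0.07 with Grd, none called. On the other probe set of Zfp36l1 they were 0.43 with Lps, 0.48 with Pic, 0.22 with Pam, 0.16 with Cpg and 0.49 with Grd. None of these was called either, and the signs with Pam and Cpg were reversed between the probe sets. Single times were also tested, a choice made after the values were seen. At 2 h Zfp36l1 fell by 1.43 ± 0.11 with Pam (adjusted p = 1.6e-16), but stood at -0.99 without the second Pam array of 2 h, -1.86 without the first, and -0.98 on the other probe set. The other ligands were not called at 2 h, with -0.68 for Cpg, -0.17 for Lps, 0.10 for Grd and 0.09 for Pic. At 4 h Zfp36l1 fell by 2.89 ± 0.11 with Lps (adjusted p = 8.1e-30), a 7.41-fold lower level, by 2.28 ± 0.11 with Cpg (4.7e-25), 4.86-fold lower, and by 1.15 ± 0.11 with Pam (2.2e-13), which on the other probe set was -0.85 and not called. Grd at -0.83 and Pic at -0.43 were not called.

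Over 4 to 8 h Zfp36l1 fell by 1.91 ± 0.07 with Lps (adjusted p = 8.5e-30) and by 1.66 ± 0.07 with Cpg (7.1e-27), and stood at -0.94 ± 0.07 with Pam, -0.88 ± 0.07 with Grd and -0.52 ± 0.07 with Pic, below the size for a call. At 12 to 24 h it was not called with any ligand, at -0.92 ± 0.09 with Cpg (n = 4), -0.75 ± 0.07 with Lps, -0.59 ± 0.07 with Pam, -0.66 ± 0.07 with Grd and -0.14 ± 0.07 with Pic, although the adjusted p was 7.7e-10 or less for the first 4 of these. For Pic it was 0.099.

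With Lps, Zfp36l2 had 671.9 and 689.6 at 0.5 h, 806.3 and 963.9 at 1 h, 360.3 and 272.5 at 2 h, 251.1 and 215.9 at 4 h, 244.5 and 225.2 at 6 h, 285.3 and 265.3 at 8 h, 269.8 and 270.8 at 12 h, 302.4 and 257.5 at 16 h, and 198.5 and 195.9 at 24 h. In unstimulated cells it had 851.4, 1056.4, 826.8, 999.3, 1185.0, 1047.2, 1027.5 and 1086.0, in order of time, a mean of 1010 ± 119 (SD, n = 8). From 2 h on every Lps array lay below every unstimulated one, and the lowest mean, 197 at 24 h, was 19.5% of the unstimulated mean. With Cpg it had 882.7 and 895.2 at 0.5 h, 839.2 and 843.1 at 1 h, 242.3 and 294.6 at 2 h, 115.3 and 129.9 at 4 h, 291.4 and 259.8 at 6 h, 376.3 and 377.8 at 8 h, 274.7 and 264.5 at 12 h, 332.4 at 16 h and 282.0 at 24 h. The 4 h mean with Cpg, 123 or 12.1% of the unstimulated mean, was the lowest of this gene in any group. Pam gave 755.7 and 875.5 at 0.5 h, 868.0 and 994.4 at 1 h, 318.0 and 301.7 at 2 h, 258.0 and 277.3 at 4 h, 380.3 and 391.3 at 6 h, 436.0 and 417.3 at 8 h, 375.9 and 389.2 at 12 h, 335.2 and 329.2 at 16 h, and 274.7 and 272.3 at 24 h. Both the 4 h and the 24 h arrays of Pam were low, with 6 and 8 h above them.

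With Grd, Zfp36l2 had 760.4 and 959.2 at 0.5 h, 1022.4 and 1068.4 at 1 h, 401.6 and 347.0 at 2 h, 240.9 and 317.6 at 4 h, 284.7 and 275.9 at 6 h, 430.9 and 507.5 at 8 h, 319.6 and 365.3 at 12 h, 321.0 and 353.6 at 16 h, and 222.8 and 265.9 at 24 h. With Pic it had 631.4 and 594.8 at 0.5 h, 722.4 and 831.1 at 1 h, 677.0 and 704.5 at 2 h, 448.7 and 459.0 at 4 h, 883.0 and 879.5 at 6 h, 907.8 and 984.3 at 8 h, 637.3 and 658.5 at 12 h, 674.6 and 575.0 at 16 h, and 534.2 and 593.3 at 24 h. The Pic course dipped at 4 h, when both arrays lay below the unstimulated range, and all 4 arrays of 6 and 8 h lay inside it. Over all ligands no array lay above the unstimulated range. Of the arrays 10 of 10 of 2 h, 26 of 30 of 4 to 8 h and 28 of 28 of 12 to 24 h lay below it.

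At 0.5 to 2 h Zfp36l2 was not called with any ligand, at -0.81 ± 0.07 with Lps, -0.78 ± 0.07 with Cpg, -0.70 ± 0.07 with Pam, -0.54 ± 0.07 with Pic and -0.53 ± 0.07 with Grd. Of the 20 arrays of 0.5 and 1 h in this window, 12 lay inside the unstimulated range and 8 below it. At 4 to 8 h it fell, at -2.10 ± 0.07 with Cpg (adjusted p = 1.6e-32), -2.02 ± 0.07 with Lps (5.0e-32), -1.50 ± 0.07 with Pam (7.2e-26) and -1.60 ± 0.07 with Grd (5.1e-27), and stood at -0.47 ± 0.07 with Pic, not called. At 12 to 24 h it fell, at -2.02 ± 0.07 with Lps, -1.77 ± 0.08 with Cpg (n = 4), -1.72 ± 0.07 with Grd and -1.62 ± 0.07 with Pam, with an adjusted p of 9.2e-26 or less, and stood at -0.72 ± 0.07 with Pic, not called.

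Of the 3 members, all 3 were called at 4 to 8 h with Lps and with Cpg, where 15.3% and 10.9% of all genes were called. With Pam and Grd 2 were called, Zc3h12a and Zfp36l2, against 7.48% and 8.45% of all genes. With Pic 0 were called at 4 to 8 h, against 7.72%, although all 3 had an unadjusted p under 0.05. At 12 to 24 h 2 of 3 were called with Lps, Pam, Cpg and Grd, against 9.12%, 6.39%, 7.09% and 6.72% of all genes, again Zc3h12a and Zfp36l2. With Pic 0 of 3 were called late, against 8.54%, and 2 of the 3 had an unadjusted p under 0.05.

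**Figure D3:**
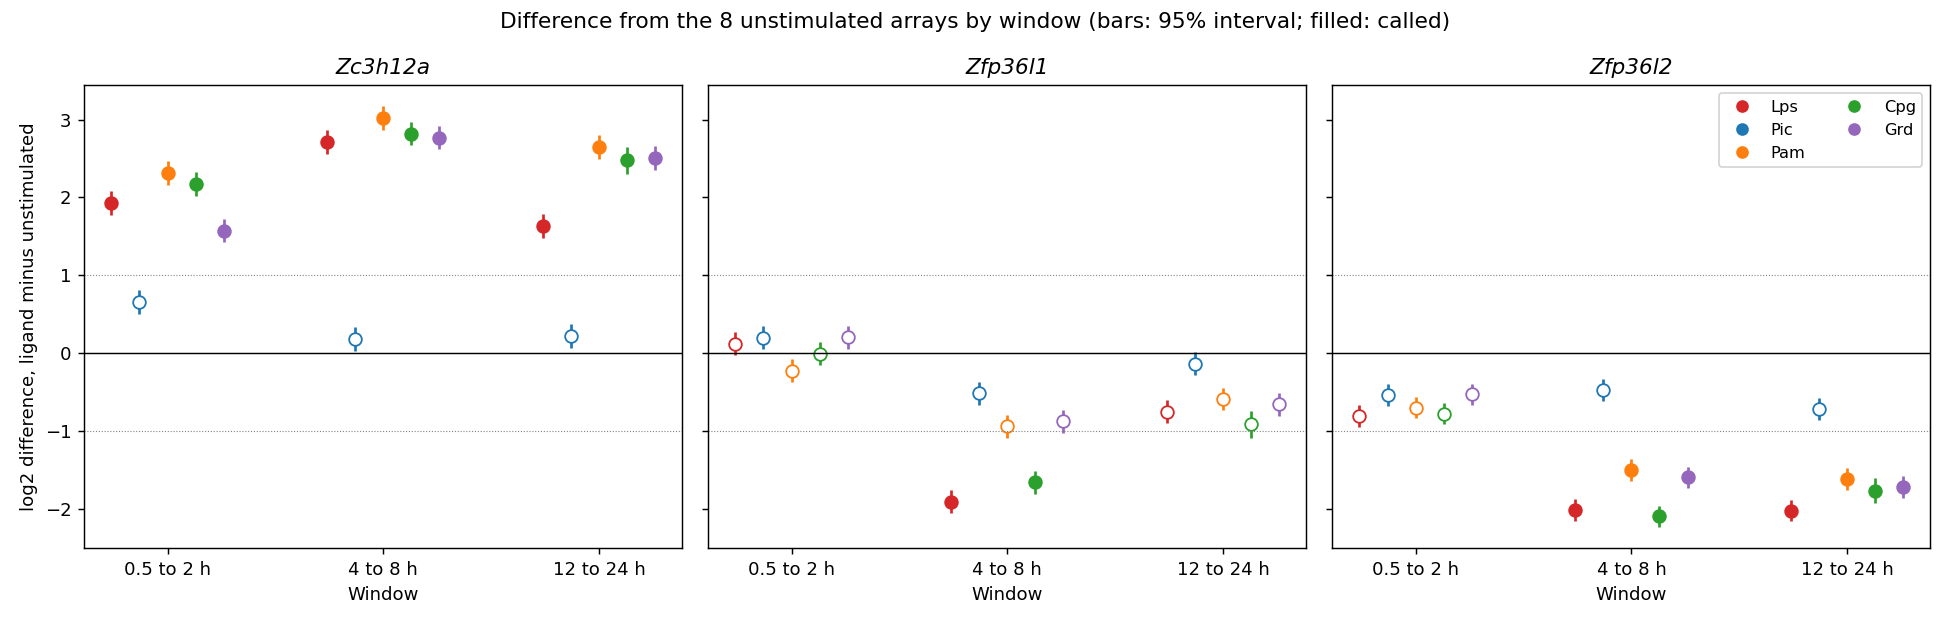
The log2 difference of each ligand from the 8 unstimulated arrays in 3 windows of time, for Zc3h12a, Zfp36l1 and Zfp36l2. Bars are 95% intervals, filled points passed the call and open points did not, and dotted lines mark a size of 1. Zc3h12a is filled for every ligand but Pic in all windows, and Zfp36l1 is filled for Lps and Cpg at 4 to 8 h only.

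The single times, chosen after the values were seen, use arrays already within the windows above and are no separate support. They show the same division. At 2 h Zc3h12a rose by 3.49 ± 0.11 with Pam, 3.24 ± 0.11 with Cpg, 3.23 ± 0.11 with Lps and 2.75 ± 0.11 with Grd. Zfp36l2 fell by 1.91 ± 0.10 with Cpg, 1.69 ± 0.10 with Pam, 1.68 ± 0.10 with Lps and 1.42 ± 0.10 with Grd. At that time 2 of 3 members were called with Lps, Cpg and Grd, against 7.34%, 6.89% and 2.49% of all genes, 3 of 3 with Pam, against 7.04%, and 0 of 3 with Pic, against 1.27%. With Pic at 2 h Zc3h12a stood at 0.75 ± 0.11 and Zfp36l2 at -0.54 ± 0.10, and these 2 had an unadjusted p under 0.05. At 4 h all 3 were called with Lps, Pam and Cpg, against 16.4%, 7.99% and 11.7% of all genes, and 2 of 3 with Grd, against 7.29%. Zfp36l2 was the 1 member called with Pic at 4 h, where it fell by 1.14 ± 0.10 (adjusted p = 6.2e-14), against 4.38% of all genes. At that time it fell by 3.03 ± 0.10 with Cpg, 2.10 ± 0.10 with Lps, 1.90 ± 0.10 with Pam and 1.86 ± 0.10 with Grd.

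The ligands were then set against each other without the unstimulated arrays, in 10 pairs at each of 2 windows. At 0.5 to 2 h the calls among the members were for Zc3h12a alone, higher with Lps than with Pic (1.28 ± 0.08, adjusted p = 1.2e-18), and lower with Pic than with Pam (-1.66 ± 0.08, 1.9e-23) and with Cpg (-1.52 ± 0.08, 5.1e-22). Each was 1 of 3 members, against 0.863%, 0.939% and 1.22% of all genes. The Lps difference from Pic rests on 2 h, as it was 0.68 without that time. Pic stood at -0.92 ± 0.08 from Grd, with 0 of 3 called and 1 with an unadjusted p under 0.05, against 0.19%. Lps against Pam, Cpg and Grd also had 0 of 3 called, where 0.0569%, 0.0759% and 0.266% of all genes were called. So had Pam against Cpg and Grd, with 0.0474% and 0.285%, and Cpg against Grd, with 0.446%. Of the 3 members, 1 to 3 had an unadjusted p under 0.05 in each of these 6 pairs. Among them the largest Zc3h12a difference was that of Pam from Grd, at 0.74 (95% interval 0.57 to 0.90).

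At 4 to 8 h Pic differed from every other ligand in Zc3h12a. Lps stood above Pic by 2.53 ± 0.08, and Pic stood at -2.84 ± 0.08 from Pam, -2.64 ± 0.08 from Cpg and -2.59 ± 0.08 from Grd, all with an adjusted p of 1.5e-32 or less. Among Lps, Pam, Cpg and Grd no Zc3h12a difference was called. The 95% intervals ran from -0.48 to -0.15 for Lps against Pam, from -0.27 to 0.05 for Lps against Cpg, from -0.22 to 0.10 for Lps against Grd. They ran from 0.04 to 0.36 for Pam against Cpg, from 0.09 to 0.42 for Pam against Grd, and from -0.11 to 0.22 for Cpg against Grd. In the order Pam, Cpg, Grd, Lps, Pic the neighbours Cpg and Grd, and Grd and Lps, did not differ beyond their error.

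Zfp36l1 and Zfp36l2 ordered the ligands otherwise. At 4 to 8 h the mean of Zfp36l1 was 514.0 for Lps, 577.1 for Cpg, 906.0 for Pam, 941.5 for Grd and 1216 for Pic, against 1733 in unstimulated cells. On its other probe set the order was Cpg at 76.45, Lps at 79.28, Grd at 124.87, Pam at 133.15 and Pic at 161.6. The places of Lps and Cpg, and of Pam and Grd, thus depend on the probe set. On the one with the higher mean Zfp36l1 was lower with Lps than with Pic (-1.40 ± 0.08) and than with Grd (-1.04 ± 0.08), and higher with Pic than with Cpg (1.15 ± 0.08). The first and last of these rest on 4 h, being -0.87 and 0.80 without it. The Lps difference from Grd was -0.52 without 4 h, -0.94 with each array centred on its median, -0.88 with probe sets averaged and -0.73 on the other probe set, none of them called. Lps stood at -0.97 ± 0.08 from Pam, which was called at -1.03 without 6 h and -1.30 without 8 h, and at -0.25 ± 0.08 from Cpg. The difference of Lps from Cpg was 0.007 on the other probe set. Pam and Grd did not differ beyond their error (-0.06, 95% interval -0.22 to 0.10).

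The mean of Zfp36l2 at 4 to 8 h was 247.9 for Lps, 258.4 for Cpg, 342.9 for Grd, 360.0 for Pam and 760.4 for Pic, against 1010 in unstimulated cells. It was lower with Lps than with Pic (-1.55 ± 0.07, adjusted p = 9.8e-25), and higher with Pic than with Cpg (1.63 ± 0.07, 1.3e-25), Grd (1.13 ± 0.07, 4.6e-19) and Pam (1.03 ± 0.07, 5.3e-18). The differences of Pic from Pam and Grd are close to the size for a call, at 0.95 for Pam without 6 h, 0.98 without 8 h, and 0.86 for Grd without 6 h. Lps and Cpg differed by 0.08 (95% interval -0.07 to 0.23), and Pam and Grd by 0.09 (-0.06 to 0.24).

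Counted by pair, 3 of 3 members were called at 4 to 8 h in Lps against Pic, where 3.72% of all genes were called, and in Pic against Cpg, with 3.41%. In Pic against Pam and Pic against Grd 2 of 3 were called, against 8.24% and 4.03%, and in Lps against Grd 1 of 3, against 1.99%. There were 0 of 3 in Lps against Pam and Cpg, with 6.15% and 0.465%, in Pam against Cpg and Grd, with 3.03% and 1.48%, and in Cpg against Grd, with 0.417%. In each of these 5 pairs 1 to 3 members had an unadjusted p under 0.05. The called pairs all hold Pic except that of Lps and Grd.

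**Figure D4:**
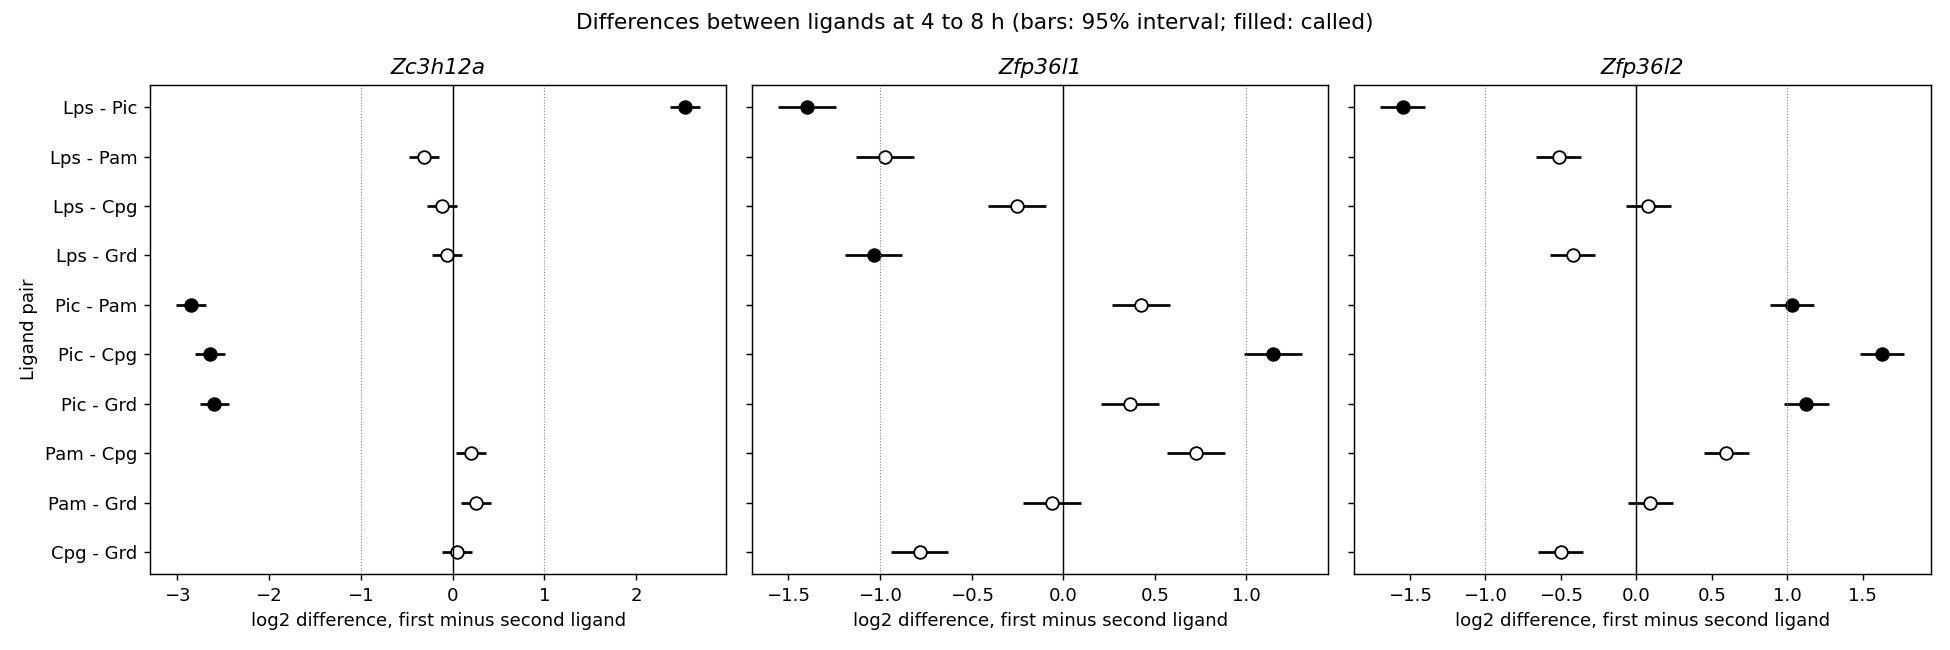
The log2 difference between the ligands of each of 10 pairs at 4 to 8 h, as the first-named minus the second, with 1 panel a gene, each panel with its own axis. Bars are 95% intervals, filled points passed the call and open points did not, and dotted lines mark a size of 1. The 4 pairs with Pic are filled for Zc3h12a and Zfp36l2, and for Zfp36l1 the filled pairs are Lps with Pic, Lps with Grd and Pic with Cpg.

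Late and early levels were compared within each ligand. Zfp36l2 was lower at 12 to 24 h than at 0.5 to 2 h, at -1.22 ± 0.07 with Lps (adjusted p = 8.6e-21) and -1.19 ± 0.07 with Grd (3.2e-20), the 1 member of 3 called with each, against 8.01% and 6.12% of all genes. Both calls need the 1 h arrays, being -0.91 with Lps and -0.89 with Grd without them. With Cpg and Pam Zfp36l2 stood at -0.99 ± 0.09 and -0.92 ± 0.07, close to the size for a call, and with Pic at -0.18 ± 0.07. Zfp36l1 stood at -0.87 ± 0.08 for Lps, -0.91 ± 0.09 for Cpg and -0.86 ± 0.08 for Grd, and nearer 0 for Pam at -0.36 ± 0.08 and Pic at -0.33 ± 0.08, none of them called. On its other probe set it was called with Lps and with Grd, both at -1.07 ± 0.08. Zc3h12a stood at 0.93 ± 0.08 with Grd, 0.34 with Pam, 0.30 with Cpg, -0.30 with Lps and -0.43 with Pic. With Pic, Pam and Cpg 0 of 3 members were called, against 8.52%, 6.14% and 5.75% of all genes, and all 3 had an unadjusted p under 0.05 with each.

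From 4 h to 24 h the members parted again. This comparison too was added after the values were seen. Zfp36l1 was higher at 24 h than at 4 h by 2.33 ± 0.14 with Lps (adjusted p = 6.3e-21) and by 1.41 ± 0.17 with Cpg (7.9e-10), and stood at 0.71 with Pam, 0.43 with Pic and 0.34 with Grd, not called. Zfp36l2 was higher by 1.20 ± 0.16 with Cpg (adjusted p = 1.2e-08) and stood between -0.24 and 0.31 with the others. Zc3h12a was lower with Lps, at -1.27 ± 0.14 (adjusted p = 3.3e-11) and stood between -0.41 and 0.29 with the others. On the other probe set of Zfp36l1 the difference of 24 h from 4 h was 1.55 with Lps and 1.01 with Cpg, the last close to the size for a call. Cpg had 1 array at 24 h, so its tests take the spread from the other groups and assume that this array varies like them. That made 2 of 3 members called with Lps and 2 with Cpg, against 14.6% and 9.24% of all genes. With Pic, Pam and Grd 0 of 3 were called, against 4.66%, 5.9% and 5.56%, with 3, 2 and 1 past an unadjusted p under 0.05.

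In the unstimulated cells themselves none of the 3 members passed the test of a change with time. Their slopes per doubling of hours + 1 were -0.10 ± 0.05 log2 units for Zc3h12a (adjusted p = 0.25), 0.07 ± 0.04 for Zfp36l2 (0.20) and -0.0013 ± 0.02 for Zfp36l1 (1), and 0 had an unadjusted p under 0.05. Of all genes 12.3% passed this test in limma, which for the slope asks for an adjusted p under 0.05 with no size.

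The course of each member over 46 group means, those of the 45 ligand and time groups and of the unstimulated cells, was set beside that of 5287 named genes whose highest group mean was at least 100. Most like Zc3h12a were Cxcl1 (r = 0.926), which encodes a neutrophil-attracting chemokine, Il1b (0.915) and Il1a (0.903), which encode interleukin-1 cytokines, Ccl3 (0.901), a chemokine gene, and Gpr85 (0.914), which encodes an orphan receptor. Most like Zfp36l1 were Map3k1 (0.903), a kinase gene of the JNK pathway, Myo9b (0.901), an unconventional myosin gene, Kmt2c (0.897), a histone methyltransferase gene, Dnajc5 (0.895), a co-chaperone gene, and Gmnn (0.893), which encodes the replication licensing inhibitor geminin. For Zfp36l2 they were Mtmr4 (0.867), a phosphoinositide phosphatase gene, Il6st (0.854), which encodes the signalling receptor gp130, Cd200r1 (0.845), an inhibitory receptor gene, Itch (0.844), a ubiquitin ligase gene, and Prr15 (0.842). Between members r was 0.77 for Zfp36l1 and Zfp36l2, -0.55 for Zc3h12a and Zfp36l1, and -0.67 for Zc3h12a and Zfp36l2. These are descriptions over groups that share ligands, neighbouring times and the plate.

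Genes of the decay machinery that these proteins recruit were then counted at 4 to 8 h. Of all genes, 7.05% were higher and 8.22% lower in this window for Lps, 4.93% and 2.79% for Pic, 3.48% and 4% for Pam, 5.4% and 5.53% for Cpg, and 4.53% and 3.92% for Grd. The median log2 difference of all genes was -0.11 for Lps, -0.10 for Pic, -0.03 for Pam, -0.08 for Cpg and -0.06 for Grd. Of 14 deadenylation factor genes tested, 1 was lower with Pam and with Cpg, which is a single gene against 4% and 5.53% of all genes, and none was called with Lps, Pic or Grd. The list median was -0.25 for Lps, -0.13 for Pic, -0.07 for Pam, -0.25 for Cpg and -0.12 for Grd. The called gene was Tob1, which encodes an adaptor of the deadenylase complex and fell by 1.28 ± 0.10 with Pam and 1.22 ± 0.10 with Cpg. Tob1 stood at -0.84 with Lps, -0.82 with Grd and -0.16 with Pic, not called. Of 11 decapping and 5' decay genes, 1 was higher and 1 lower with Lps, 1 was higher with Pic and 1 with Cpg, and none was called with Pam or Grd. Xrn1, the cytoplasmic 5' exonuclease gene, rose by 1.56 ± 0.09 with Pic, 1.52 ± 0.09 with Lps and 1.34 ± 0.09 with Cpg and stood at 0.80 with Grd and -0.09 with Pam. Dcps, the scavenger decapping enzyme gene, fell by 1.11 ± 0.09 with Lps. It stood at -0.88 with Pam, -0.83 with Pic, -0.83 with Grd and -0.78 with Cpg, not called. The median of this list was -0.18 for Lps, -0.10 for Pic, -0.05 for Pam, -0.18 for Cpg and -0.19 for Grd. Of 8 exosome and 3' decay genes 0 were called with any ligand, and their median was -0.36 for Lps, -0.40 for Pic, 0.03 for Pam, -0.17 for Cpg and -0.06 for Grd. Of 3 nonsense-mediated decay genes 0 were called, with medians between -0.04 for Lps and 0.30 for Pam.

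Among 11 other regulators of transcript stability at 4 to 8 h, 2 genes were called, Arid5a and Cpeb4. Both were higher with Lps, Pic and Cpg, and Cpeb4 alone with Pam and Grd, where 7.05%, 4.93%, 5.4%, 3.48% and 4.53% of all genes were higher, so the counts rest on 1 or 2 genes. The list medians ran from 0.07 with Pic to 0.29 with Cpg, against -0.10 and -0.08 for all genes. Arid5a, whose protein binds and stabilises the Il6 transcript, rose by 2.37 ± 0.07 with Pic, 1.94 ± 0.07 with Lps and 1.46 ± 0.07 with Cpg, and stood at 0.91 ± 0.07 with Grd and -0.45 ± 0.07 with Pam. In intensity Arid5a averaged 259 with Pic and 35.7 with Pam, against 48.6 ± 7.26 (SD, n = 8) in unstimulated cells, an order of the ligands unlike that of Zc3h12a. Cpeb4, which encodes a cytoplasmic polyadenylation element binding protein, rose with all 5 ligands, by 1.71 ± 0.07 with Lps, 1.44 ± 0.07 with Cpg, 1.38 ± 0.07 with Grd, 1.29 ± 0.07 with Pic and 1.17 ± 0.07 with Pam.

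Among 12 genes of kinases and modifiers that act upstream of these proteins, 3 were higher and 1 lower with Lps at 4 to 8 h, 2 higher with Pic, 2 higher with Pam, 2 higher and 1 lower with Cpg, and 3 higher with Grd. Calls in either direction made up 15.3%, 7.72%, 7.48%, 10.9% and 8.45% of all genes for these ligands in that order. Tank, an adaptor of the TRAF pathway, rose by 1.52 ± 0.08 with Lps, 1.40 ± 0.08 with Cpg, 1.11 ± 0.08 with Pic and 1.10 ± 0.08 with Grd. With Pam it stood at 0.71, not called. Mapkapk2, the kinase that phosphorylates the Zfp36 protein, rose by 1.35 ± 0.09 with Lps, 1.22 ± 0.09 with Grd and 1.20 ± 0.09 with Pam. Its differences with Pic and Cpg, 0.91 and 0.86, fell short of the size for a call. Dusp1, a phosphatase of MAP kinases, rose by 1.04 ± 0.10 with Cpg, 1.03 ± 0.10 with Pam and 1.01 ± 0.10 with Grd. Its differences with Pic and Lps, 0.91 and 0.90, were close to these but not called. Mapk14, the gene of p38 alpha, fell by 1.33 ± 0.07 with Cpg and 1.17 ± 0.07 with Lps. It stood at -0.80 with Grd, -0.73 with Pic and -0.49 with Pam, not called. On its other probe sets above the floor the difference was -1.03 and -0.71 with Cpg, and -1.15 and -0.91 with Lps. The remaining call, named after its values were seen, was the adaptor gene Myd88, at 1.01 with Lps and 1.03 with Pic. The medians of the list lay between -0.07 with Pic and 0.21 with Lps, against -0.10 and -0.11 for all genes.

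Known target transcripts of these proteins were mostly higher. Of 12 transcripts listed for the Zfp36 family, 11 were higher at 4 to 8 h with Lps and Cpg, 10 with Pam and Grd and 7 with Pic, and none was lower. The share of all genes higher was 7.05% for Lps, 5.4% for Cpg, 3.48% for Pam, 4.53% for Grd and 4.93% for Pic. The medians were 4.82, 4.85, 4.67, 4.87 and 2.27 for Lps, Cpg, Pam, Grd and Pic, against medians of all genes between -0.11 and -0.03. Tnf averaged 4053 with Lps, 841 with Pic, 3411 with Pam, 4513 with Cpg and 4343 with Grd, against 73.4 ± 42.4 (SD, n = 8) in unstimulated cells. Ptgs2, the cyclooxygenase-2 gene, averaged 5068 with Lps and 297 with Pic and lay at the floor of 20 on all 8 unstimulated arrays, so no fold is given. Its log2 difference with Pic was 3.40 on this probe set and 2.10 on its other one, and with Lps 7.91 and 7.85. Cxcl1 averaged 1951 with Lps, 2803 with Pam and 22.9 with Pic, and also lay at the floor on all 8 unstimulated arrays. Ptgs2 and Cxcl1 thus passed the filter through ligand arrays alone and could only come out higher. Their part in the counts and medians above was fixed in advance and is no result about the list. No count without them was made. Apart from Tnf and Il6, the other genes of the list were not checked for lying at the floor in unstimulated cells.

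Of 7 transcripts listed for Zc3h12a, its own among them, 5 were higher at 4 to 8 h with Lps, Cpg and Grd, 4 with Pam and 3 with Pic, and none was lower. With Zc3h12a itself left out, 4 of 6 were higher with Lps, Cpg and Grd and 3 of 6 with Pam and Pic, where 7.05%, 5.4%, 4.53%, 3.48% and 4.93% of all genes were. The medians of these 6 were 3.26, 3.30, 3.04, 2.57 and 1.02 for Lps, Cpg, Grd, Pam and Pic, against -0.11, -0.08, -0.06, -0.03 and -0.10 for all genes. Il6, which is on both lists, rose by 7.97 ± 0.18 for Lps, 7.87 ± 0.18 for Cpg, 7.70 ± 0.18 for Grd, 7.61 ± 0.18 for Pam and 4.93 ± 0.18 for Pic. Nfkbiz, the gene of the nuclear IkB protein IkB-zeta, rose by 4.99 ± 0.14 for Cpg, 4.89 ± 0.14 for Grd, 4.59 ± 0.14 for Lps, 4.40 ± 0.14 for Pam and 2.43 ± 0.14 for Pic. Il12b, a subunit gene of interleukin-12, rose by 6.94 ± 0.23 for Cpg, 6.59 ± 0.23 for Lps, 6.06 ± 0.23 for Grd, 4.81 ± 0.23 for Pam and 1.48 ± 0.23 for Pic on the probe set with its higher mean, and by 5.47 with Lps on the other. With Pic, Il6, Nfkbiz and Il12b were thus called while Zc3h12a stood at 0.18. The lists were drawn up from general knowledge of these proteins, but with earlier results of these data known, so the counts are not independent of the data. A count of list members also says nothing of the decay rate of any transcript, which was not measured.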

How the data were processed

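Transcript levels were measured on 96 arrays of mouse bone marrow dendritic cells. The authors deposited 1 intensity per probe set and array, on a linear scale. The submitters' processing notes name RMA, and its version and the step that set the floor of 20 are not given in the sources used here. Probe sets took their gene from the platform annotation, and 15044 had 1 symbol. Probe sets that never left the floor, 4409 in number, were dropped. Each gene was read on whichever of its probe sets had the highest mean across the 96 arrays, which with unnamed probe sets gave 10543 items for testing, 7741 of them named genes, and the text calls all of them genes.

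Values were analysed as log2(value + 1) in limma 3.58.1 under R 4.3.3. One model held a mean for each of 45 ligand and time groups and 1 for the 8 unstimulated arrays, leaving 50 degrees of freedom. Windows of 3 times are means of their groups with equal weight. Tests were two-sided, with Benjamini-Hochberg adjustment over all genes in each comparison. The number of arrays limits the precision, and the script was tested on simulated data.

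The text names the members, up to 4 genes of each list called at 4 to 8 h with the largest differences, Myd88 in addition, which was named after its values were seen, and the 5 genes most like each member. Members and lists were chosen with earlier results of these data known. Deviations of same-numbered arrays of a ligand from their group means were at most weakly correlated at the median. That median was 0.12 with Lps, 0.02 with Pic, 0.01 with Pam, 0.07 with Cpg and 0.04 with Grd. Over all 903 pairs, within and between ligands, it was 0.008. With Lps the correlations ran from -0.08 to 0.35, the highest of all pairs. Alternatives were pseudocount 16, centred or quantile-normalized arrays, a filter on dim probe sets, averaged probe sets, the other probe set of Zfp36l1, array weights, a replicate block, a linear trend or matched times for the unstimulated arrays, a slope on hours, windows without 1 time, and leaving out each array.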

Additional observations from a re-analysis of the deposited data

Results flagged for a closer look

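The level of a member with a ligand differed between times in 6 cases, each by a test of the difference itself in limma. Differences are on the log2 scale as later minus earlier with the standard error. Each had at most 6 arrays on a side and no unstimulated arrays in the contrast. The comparison of 24 h with 4 h was added after the values were seen. Zfp36l2 was lower at 12 to 24 h than at 0.5 to 2 h with Lps, at -1.22 ± 0.07 (adjusted p = 8.6e-21), and with Grd, at -1.19 ± 0.07 (3.2e-20). Without 1 h these differences were -0.91 with Lps and -0.89 with Grd, not called. Zc3h12a with Lps was lower at 24 h than at 4 h, at -1.27 ± 0.14 (adjusted p = 3.3e-11). Zfp36l1 was higher at 24 h than at 4 h with Lps, at 2.33 ± 0.14 (adjusted p = 6.3e-21), and with Cpg, at 1.41 ± 0.17 (7.9e-10, with 1 Cpg array at 24 h). Zfp36l2 with Cpg was higher at 24 h than at 4 h, at 1.20 ± 0.16 (adjusted p = 1.2e-08, on the same array). With Lps at 24 h Zfp36l1 was therefore above its 4 h level while Zc3h12a was below its own. The other probe set of Zfp36l1 gave smaller differences of 24 h from 4 h, at 1.55 with Lps and 1.01 with Cpg. Plate column and time cannot be told apart for Lps and Grd, and the Cpg values at 24 h rest on 1 array, so both Cpg tests take the spread from the other groups and assume that this array varies like them.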

How the results depend on the processing

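Of 3835 member values recomputed under the alternatives, 3797 kept their side of the call, and none that was called changed sign. Among differences called under neither setting 63 changed sign, and these are counted within the 3797. The number of members called moved as follows. Without 1 h it was 2 with Lps and 2 with Cpg at 0.5 to 2 h, in place of 1 each, and also 2 with Cpg without 0.5 h. Without 2 h it was 0 in place of 1 with Grd at 0.5 to 2 h and in Lps against Pic there, and without 0.5 h it was 1 in place of 0 in Pic against Grd. At 4 to 8 h Lps against Pam had 1 without 6 h and 1 without 8 h in place of 0, Cpg against Grd had 1 without 8 h in place of 0, Pic against Pam had 1 without 6 h or 8 h in place of 2, and Pic against Grd had 1 without 6 h in place of 2. Without 4 h Lps against Pic and Pic against Cpg had 2 in place of 3. Against unstimulated cells Pam at 2 h had 2 in place of 3 without replicate 2 of 2 h or on the other probe set of Zfp36l1, and Pam at 4 h had 2 in place of 3 on that probe set. Lps against Grd had 0 in place of 1 with centred arrays, averaged probe sets, the other probe set of Zfp36l1, or without 4 h. For 12 to 24 h against 0.5 to 2 h, Lps had 2 on the other probe set, 0 without 1 h and 2 without 2 h in place of 1, and Grd had 2 on the other probe set, 0 without 1 h, 2 without 2 h and 2 without 16 h in place of 1. Pam had 1 without 2 h and 1 without 12 h in place of 0, and Cpg had 1 with centred arrays, 1 with quantile normalization, 2 without 2 h and 1 without 16 h in place of 0. Leaving out single arrays gave 0 to 1 for this Cpg comparison, where Zfp36l2 passed the call at -1.04 with replicate 1 of 2 h left out, at -1.08 with the 16 h array left out, and narrowly with replicate 1 of 12 h left out. The cause was not tested. A replicate block, with the replicate number as a term, changed no call of a member: at 4 to 8 h of Lps it gave 2.71 for Zc3h12a, -1.90 for Zfp36l1 and -2.04 for Zfp36l2. The number of arrays limits all of these, and a group mean rests on 1 or 2 arrays.

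The count of all genes called moved over 1.5 times mostly at 0.5 to 2 h. Without 0.5 h it was 386 in place of 223 with Lps, 431 in place of 252 with Pam and 402 in place of 226 with Cpg, and without 2 h it was 137 with Lps and 143 with Cpg. A linear trend fitted to unstimulated arrays gave 146 with Lps, 165 with Pam, 69 in place of 118 with Grd and 30 in place of 91 with Pic, where array weights gave 48 and matched times 33. For Pic at 2 h matched times gave 51 in place of 134. Between ligands at 0.5 to 2 h, leaving out 0.5 h gave 152 in place of 91 for Lps against Pic, 22 in place of 6 for Lps against Pam, 32 in place of 8 for Lps against Cpg, 64 in place of 28 for Lps against Grd, 169 in place of 99 for Pic against Pam, 229 in place of 129 for Pic against Cpg, 49 in place of 20 for Pic against Grd, 14 in place of 5 for Pam against Cpg, 58 in place of 30 for Pam against Grd and 98 in place of 47 for Cpg against Grd. Leaving out 1 h gave 16, 13 and 28 for Lps against Pam, Pic against Grd and Cpg against Grd, and leaving out 2 h gave 44, 24 and 10 for Lps against Pic, Cpg and Grd. Pseudocount 16 gave 4 for Lps against Cpg and 1 for Pam against Cpg, and at 4 to 8 h 22 in place of 44 for Cpg against Grd, which had 29 without 4 h.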
